A study of Homo sapiens with 2 samples.

Results

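Human chromosome 17 (hg19) carried 1337 of the 20085 peaks in the deposited list of PML-RARA CUT&Tag sites in NB4 cells. The members are all peaks whose chromosome is listed as chromosome 17; no signal value was used to choose them. A further 18735 peaks lay on chromosomes 1 to 22 and X other than 17, and 13 lay on contigs with no assigned position. The series holds 1 group, NB4 cells with no stated treatment, stained with a PML-RARA antibody in 2 replicates. NB4 is a cell line derived from acute promyelocytic leukemia, a leukemia of immature granulocytes. The authors deposited 1 merged list with no value per replicate, so no difference here could be tested across replicates, and nothing in the labels says that the replicates were separate cultures. There was no control-antibody or fusion-negative sample to set beside these peaks. The list holds no expression values, so the identity of the cells was not checked against marker expression.

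The leukemia is defined by a translocation between chromosomes 15 and 17 that joins PML, a protein of nuclear bodies, to RARA, the retinoic acid receptor alpha. RARA is a nuclear receptor that binds DNA as a partner of RXR at pairs of short half-sites and activates transcription when it binds retinoic acid. The fusion protein keeps the DNA-binding part of RARA, recruits corepressors and holds promyelocytes short of maturation, and retinoic acid or arsenic releases that block. In cells with the translocation, the part of chromosome 17 distal to the RARA break is joined to chromosome 15, and the proximal part, from the short-arm end to the break, stays on a derivative chromosome 17. CUT&Tag directs a transposase to the antibody, so that a peak is a stretch of DNA where tagged fragments piled up. Peaks mapped to chromosome 17 can come from the normal copy or from either derivative, and these sources cannot be told apart in the list. The list gives no copy number, and no count or signal compared here between parts or chromosomes was adjusted for it. The breakpoint region was taken as 38.49 Mb, and peaks were called distal or proximal by their midpoint.

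Of the 8 chromosome 17 genes with a gene model on hg19 at hand, 4 had a peak over the transcription start site (TSS). MED24 and TRIM37 are the genes of these with a single RefSeq promoter entry, so theirs are printed (RefSeq, GRCh38.p14, 250 bases before to 50 after the start, 5′ to 3′ on the gene's strand). MED24 encodes a subunit of the Mediator complex, which links transcription factors to RNA polymerase II, and TRIM37 encodes a ubiquitin ligase. Capitals mark a match to GAGGAA, the core bound by the myeloid factor PU.1, here on the reverse strand. TRIM37 has no capitals because none of the motifs searched was in its window.
MED24 promoter: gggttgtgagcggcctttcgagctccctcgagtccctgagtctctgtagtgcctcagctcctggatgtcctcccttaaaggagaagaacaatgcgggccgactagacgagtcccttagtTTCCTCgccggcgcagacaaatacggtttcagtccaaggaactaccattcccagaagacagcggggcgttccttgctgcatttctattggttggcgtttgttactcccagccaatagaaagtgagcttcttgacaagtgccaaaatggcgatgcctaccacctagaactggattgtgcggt
TRIM37 promoter: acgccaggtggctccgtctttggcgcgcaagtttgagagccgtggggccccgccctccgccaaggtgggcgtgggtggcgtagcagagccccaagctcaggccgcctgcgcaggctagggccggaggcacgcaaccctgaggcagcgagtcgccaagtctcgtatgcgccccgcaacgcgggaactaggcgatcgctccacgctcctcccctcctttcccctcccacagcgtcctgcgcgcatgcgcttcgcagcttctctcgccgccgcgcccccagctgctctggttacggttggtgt

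The motifs searched on both strands were the retinoid half-site AGGTCA, its variant AGTTCA, a further variant GGGTCA, the ETS motif CCGGAAG, and GAGGAA; no motif contains another. GAGGAA occurred in 27.2% of the 1635 promoter windows of chromosome 17 and in 27.9% of all 34943 windows of the same length. At least 1 of the 3 half-sites occurred in 33.03% of the chromosome 17 windows and 33.2% of all windows. The share with AGGTCA was 13.2% on chromosome 17 and 13.8% over all. GGGTCA was in 16.3% and 14.1%, AGTTCA in 8.38% and 10.5%, and CCGGAAG in 12.05% and 10.2%, with chromosome 17 given first in each pair. The MED24 window had a GC content of 53.3% with 15 CpG pairs and the TRIM37 window 69.7% with 33, against a median GC of 62% over chromosome 17 promoters. B9D1 and TADA2A, the other genes with a peak over the TSS, have 2 RefSeq entries each, and which entry is the start of the hg19 model is not known. For MED24 and TRIM37, whether the single GRCh38 entry is the start of the hg19 model was not checked either. The first B9D1 entry held 1 AGGTCA and the second held 2 CCGGAAG matches, while 1 of the TADA2A entries held 1 GGGTCA and the other none. RARA has 3 RefSeq entries, of which the first held 1 AGGTCA and 1 GGGTCA; RARA was not among the 8 hg19 models, so no peak was placed on or off its start sites. A match describes letters in a window and not a bound site.

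At these 4 start sites the peaks differed in strength. TRIM37, at chr17:57060010-57184241 on the minus strand, had the strongest, chr17:57183952-57184913, with a total signal of 14404, a maximum of 48 and 14.99 per base. Total signal is the authors' value summed over the peak, the maximum is its highest point, and signal per base is the total divided by the peak length. TADA2A, a subunit of histone acetyltransferase complexes on the plus strand at chr17:35767312-35837226, had a peak of 438 bp with a total of 5415, a maximum of 43 and 12.4 per base. MED24, at chr17:38175357-38210661 on the minus strand, had a peak of 425 bp with a total of 2953, a maximum of 15 and 6.95 per base. B9D1, a gene of the ciliary transition zone at chr17:19244251-19266036 on the minus strand, had a peak over the TSS with a total of 3329 and a second, 865 bp away, with 2850. The TRIM37 peak ranked 311 of 1337 by total signal, and the other 4 fell in the lower part of the list, at ranks 741 to 1242.

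The 4 remaining models had no peak within 2 kb of the TSS. IKZF3, a lymphoid zinc finger factor on the minus strand at chr17:37913972-38020565, had 1 peak in its body, chr17:37913631-37915115, over the 3′ end of the model and 105450 bp from the start site; its total was 13588. EPN3, an endocytic adaptor gene, had 1 peak of total 3549 in its body, 9107 bp from the start site. NGFR, the nerve growth factor receptor, and MED13, of the Mediator kinase module, had none in their models; the nearest peaks lay 79924 bp and 561608 bp from their TSSs. These models are examples from a software package and not a random draw of genes, so the 4 of 8 is not a rate for the chromosome.

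Chromosome 17 was dense in peaks, and its single peaks were about as strong as elsewhere. It held 6.66% of the 20072 peaks on chromosomes 1 to 22 and X (95% exact binomial interval 6.32 to 7.01%), 6.73% of their summed signal, 2.67% of the sequence length and 5.85% of the protein-coding genes. There were 16.5 peaks per Mb on chromosome 17 and 6.34 per Mb on the other chromosomes, a ratio of 2.60. This was the second highest density of 23 chromosomes, after chromosome 19 with 27.0 and before chromosome 20 with 13.5. Peaks covered 1.95% of chromosome 17 and 0.747% of the others. Per protein-coding gene the figures were 1.14 and 0.996 peaks, and chromosome 17 then ranked 9 of 23.

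The median signal per base was 7.25 on chromosome 17 (95% order-statistic interval 7.01 to 7.48) and 7.55 on the other chromosomes (7.48 to 7.63), which placed chromosome 17 at rank 20 of 23. Such intervals treat peaks as independent draws from 1 pair of libraries and do not cover the error between replicates. Nearby peaks need not be independent, so the intervals may be too narrow. The median total signal was 6112 on chromosome 17 and 6503 elsewhere, and the median length 887 and 894 bp. Totals of 50000 or more occurred in 64 chromosome 17 peaks, 4.79% of them, beside 4.62% of all peaks on chromosomes 1 to 22 and X. Lengths of 4000 bp or more occurred in 28, or 2.09%, beside 2.12% of all peaks. Both shares lie near those of the whole list. The strongest 1% of peaks held 13.4% of the signal on chromosome 17 and 13.2% on the other chromosomes, and the strongest 10% held 47.5% and 46.4%.

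Among themselves the peaks spanned lengths of 199 to 16221 bp, maxima of 6 to 417 and signal per base of 2.88 to 73.6. The interquartile ranges lay between 663 and 1356 bp, and between 5.36 and 11.2 per base. Longer peaks tended to be denser: the median signal per base was 5.88 in the 686 peaks of 500 to under 1000 bp, 8.33 in the 401 of 1000 to under 2000 bp, 13.4 in the 118 of 2000 to under 4000 bp and 16.9 in the 28 of 4000 bp or more. The 104 peaks under 500 bp had a median of 7.71, out of that order. No peak of the whole list had a total below 2577, so a short peak is listed only where its signal per base is high, which bears on that shortest class. Across the 1337 peaks, Spearman's rho was 0.808 between length and total signal, 0.343 between length and signal per base and 0.927 between maximum and signal per base. These are descriptions of 1 list, and length enters both sides of the second of them.

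Distal to the RARA breakpoint region lay 761 peaks, 56.9% of the chromosome's peaks (95% exact binomial interval 54.2 to 59.6%). The distal part makes up 52.6% of the chromosome length, holds 53.2% of its protein-coding genes by RefSeq gene order and carried 57.03% of its peak signal. The density was 17.8 peaks per Mb distal, against 14.96 proximal over 576 peaks, a ratio of 1.19. The proximal part includes the 3.6 Mb of centromeric bands; without them the proximal density was 16.5 and the ratio 1.08. On the long arm alone the distal density of 17.8 stood against 17.3 between the centromere and the boundary, and against 19.7 there without the centromeric band, ratios of 1.03 and 0.905. The order of the parts therefore depends on what is counted as proximal. Peaks per protein-coding gene were 1.22 distal and 1.05 proximal.

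Peak strength differed little between the parts. The median signal per base was 7.15 distal (6.75 to 7.48) and 7.34 proximal (7.06 to 7.81), with overlapping intervals, and the ratio of 0.974 turned to 1.10 when only peaks with a total of 5000 or more were kept. It was 1.06 among peaks with a maximum of 20 or more. Median total signals were 5860 distal and 6441 proximal, and median lengths 883 and 893.5 bp. Totals of 50000 or more were reached by 34 distal peaks (4.47%) and 30 proximal peaks (5.21%), against 4.62% of all peaks. Lengths of 4000 bp or more were reached by 13 distal (1.71%) and 15 proximal peaks (2.60%), against 2.12% of all peaks.

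**Figure D1:**
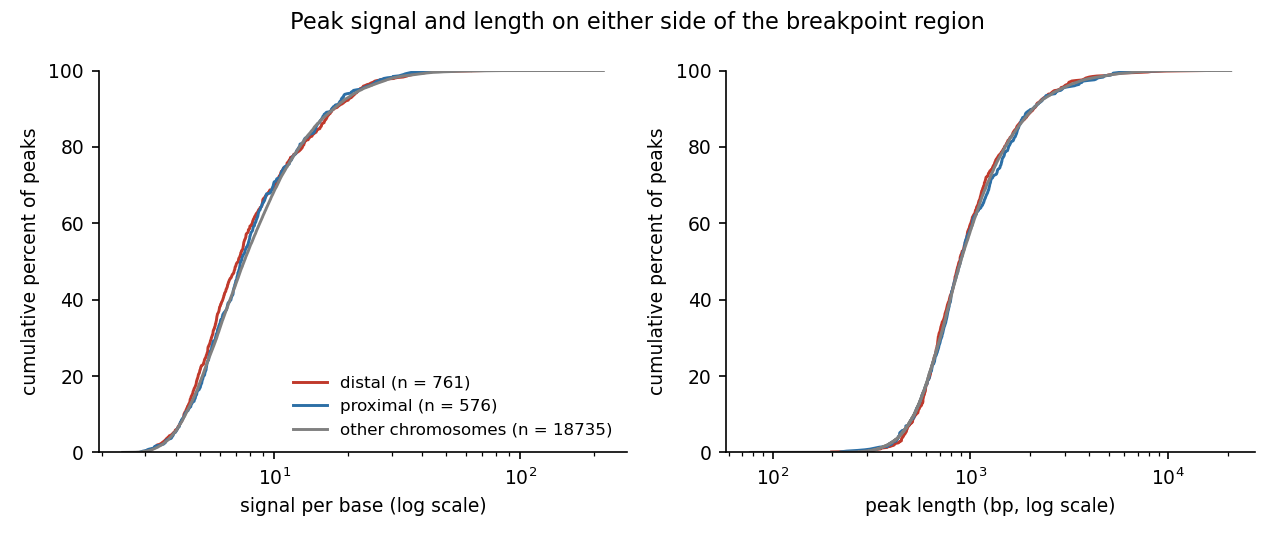
Cumulative percent of peaks by signal per base (left) and by length in bp (right), both on log axes, for 761 distal, 576 proximal and 18735 peaks of other chromosomes. The 3 curves run close together; the median signal per base was 7.15 distal, 7.34 proximal and 7.55 on the other chromosomes.

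Density varied along the distal part. The stretch from the boundary to 50 Mb had 218 peaks at 18.9 per Mb, close to the 18.5 per Mb of the 250 peaks between 25 Mb and the boundary on the proximal side. From 50 to 70 Mb there were 131 peaks at 6.55 per Mb. From 70 Mb to the long-arm end there were 412, or 36.8 per Mb, which is 30.8% of all chromosome 17 peaks. On the short arm the density was 16.8 per Mb up to 10 Mb, 4.17 between 10 and 16 Mb and 22.2 between 16 and 22 Mb. The sparse stretch from 50 to 70 Mb had the highest median signal per base of these stretches, 9.10, and the dense stretch past 70 Mb had 6.82.

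In bins of 1 Mb the count had a median of 12.5 peaks (interquartile range 4.25 to 21), and 11 of 82 bins were empty. The densest bin, 79 to 80 Mb, held 92 peaks, ranked 4 among 3030 bins of the genome and summed to 1059783 in total signal. Its median signal per base of 5.74 was the lowest of the 47 bins with 10 or more peaks. The bin at 56 to 57 Mb had nearly the same summed signal, 1005962, from 20 peaks. The next counts were 49 at 73 to 74 Mb, 48 at 37 to 38 Mb, and 44 each at 17 to 18 and 75 to 76 Mb. The 10 bins with 40 or more peaks held 482 peaks, 36.1% of the members. Among those 47 bins, the highest medians of signal per base were 13.8 over the 11 peaks at 57 to 58 Mb and 12.3 over the 13 peaks at 61 to 62 Mb. Over the 47 bins, Spearman's rho between the count and the median signal per base was -0.51, a description over bins of the same libraries.

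**Figure D2:**
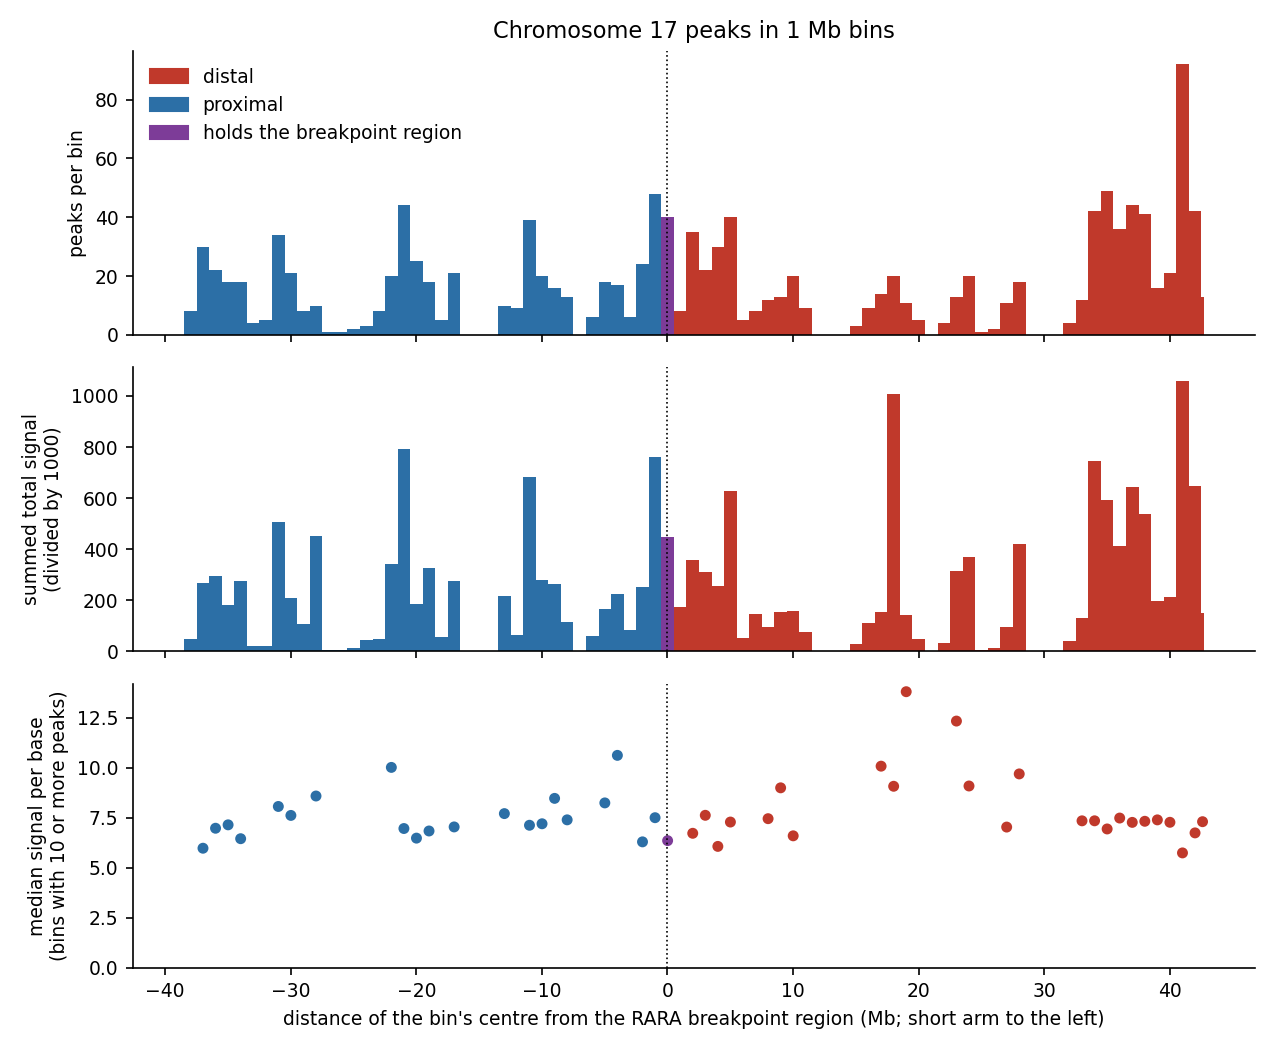
Chromosome 17 in 1 Mb bins by distance of the bin's centre from the breakpoint region in Mb, with peaks per bin (top), summed total signal divided by 1000 (middle) and median signal per base in bins with 10 or more peaks (bottom). The tallest count, 92, is far out on the distal side, where the median signal per base of 5.74 is the lowest point.

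Peaks lay in clusters. A neighbour within 10 kb was found for 862 peaks, 64.5% (61.8 to 67.0%), against 61.1% on the other chromosomes. The share was 67.0% distal and 61.1% proximal. These shares stand at unlike densities, 16.5 against 6.34 peaks per Mb for the first pair and 17.8 against 14.96 for the second. A fixed window finds more neighbours where peaks are denser, and clustering beyond density was not tested. Joining neighbours with gaps of at most 10 kb gave 129 runs of 3 or more peaks, which hold 630 peaks, and left 475 peaks single. The largest run had 25 peaks at chr17:75359783-75471705 in 17q25.3, with a summed signal of 341733. At the other end of the scale, 9 gaps longer than 1 Mb added up to 21.0 Mb, 25.9% of the chromosome. The longest, 4.49 Mb, ran from 49337963 to 53828032; the gap around the centromere was 4.21 Mb, and one of 3.88 Mb followed 66508887.

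The breakpoint region itself fell inside a run. It held 12 peaks between 38472055 and 38509754, covered 47.9% of those 37.7 kb and summed to 166829. The size of 12 was shared by 5 runs and exceeded by 1 on chromosome 17. The 5 distal peaks of the run had totals of 5686 to 8026 (median 6572) and maxima of 14 to 21. The 7 proximal peaks had totals of 3100 to 75785 (median 7978) and maxima of 9 to 117. The totals of the groups overlap, and the proximal side of the run carried 80.1% of its signal.

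Most of that proximal signal came from 1 broad peak, chr17:38476060-38481245, with a total of 75785, a maximum of 117 and 14.6 per base. Its neighbour chr17:38473665-38475732 had 28735. The peak chr17:38489897-38491443 spans the boundary coordinate, counts as distal by its midpoint, and had a total of 6788, a maximum of 14 and 4.39 per base, the lowest signal per base of the run. Within 500 kb of the boundary there were 16 peaks with a summed signal of 97120 on the distal side, and 24 with 349438 on the proximal side. Their median signal per base was 5.62 distal and 7.11 proximal. The next strongest peak of the window after the broad one was chr17:38254446-38257875 in 17q21.1, with 58047.

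**Figure D3:**
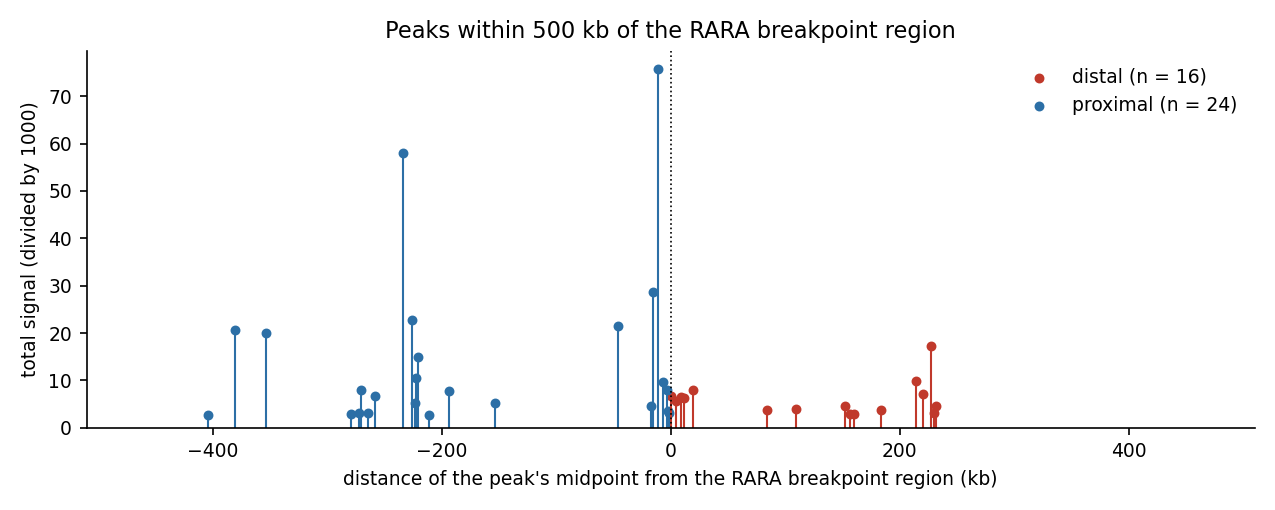
Total signal, divided by 1000, of each peak within 500 kb of the RARA breakpoint region, by distance of its midpoint in kb, for 16 distal and 24 proximal peaks. The tallest, 75785, lies on the proximal side next to the boundary, and the 5 distal peaks of the same run reach at most 8026.

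Past the run, 11 distal peaks with 4.50 to 11.7 per base were followed by a gap of 982 kb, from 38722032 to 39703887. The band of RARA, 17q21.2, also holds all 16 listed genes of type I keratins, the filament proteins of epithelial cells. All 16 follow RARA in RefSeq gene order. How the gap lies against single keratin genes was not measured, since no full hg19 annotation was used here.

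The 10 strongest peaks by total signal, 6 distal and 4 proximal, lay in 8 bands and carried 11.5% of the signal on chromosome 17. Genes named beside them are those of the listed groups that share the cytogenetic band; how far each gene lies from the peak was not measured. The strongest was chr17:56401454-56417675 in 17q22, 16221 bp long, with a total of 553145, a maximum of 220 and 34.1 per base. Its total was the second highest of chromosomes 1 to 22 and X and 2.05 times the next on chromosome 17. The band 17q22 holds MPO, EPX and LPO, which encode peroxidases of granulocytes and secretions, and MIR142, a microRNA gene of blood cells, along with RAD51C of DNA repair and RNF43, an inhibitor of WNT signalling. A second peak of the 10, chr17:56341764-56349663 with a total of 126714, lay in the same band, as did chr17:56354805-56360092 with 88430. A shorter one there, chr17:56594695-56596348, had 70371 and 42.6 per base. With all its peaks, 17q22 had 51, or 6.89 per Mb, but these strong sites all lay in the bin at 56 to 57 Mb, which held 20 peaks. The strongest peak had 9 other peaks within 100 kb and chr17:56341764-56349663 had 10.

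The second peak by total was chr17:10017160-10024671 in 17p13.1, with 270116 and the highest maximum of the chromosome, 417. That band holds CD68, a protein of phagocyte lysosomes, the lipoxygenase gene ALOX12, the demethylase gene KDM6B and 6 listed genes of muscle myosins. The third, chr17:66339650-66343791 in 17q24.2, had 243990, a maximum of 373 and 58.9 per base, and shares its band with BPTF, a subunit of a nucleosome remodeller, and PRKAR1A, a regulator of protein kinase A. The fourth, chr17:17738342-17748009 in 17p11.2, had 227910 and stood in a run of 12 peaks with a summed signal of 423755. Listed genes of 17p11.2 include SREBF1, a regulator of lipid synthesis, NCOR1, a corepressor that binds nuclear receptors, and TNFRSF13B, a receptor of B cells. The fifth, chr17:43299629-43309460 in 17q21.31, had 197154; that band holds, among others, GRN, the progranulin gene, ITGA2B, a platelet integrin subunit, BRCA1 of DNA repair, and the histone deacetylase gene HDAC5.

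The remaining 5 of the 10 had totals of 122453 to 145617, with the peak of 17q22 among them. They included chr17:79794919-79801868 in 17q25.3 with 145617 and chr17:72731824-72735819 in 17q25.1 with 133665. The other 2, chr17:27465203-27468864 with 123039 and chr17:25856219-25860462 with 122453, lay in 17q11.2, the band of NF1, a brake on RAS signalling, and SUZ12, a core polycomb protein. The 10 ranged from 3661 to 16221 bp and from 16.04 to 58.9 per base. Only 4 of them were among the 10 with the highest maximum, and 1 among the 10 with the highest signal per base. The highest signal per base, 73.6, belonged to chr17:76587987-76589148 in 17q25.3, which is 1161 bp long with a total of 85409.

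**Figure D4:**
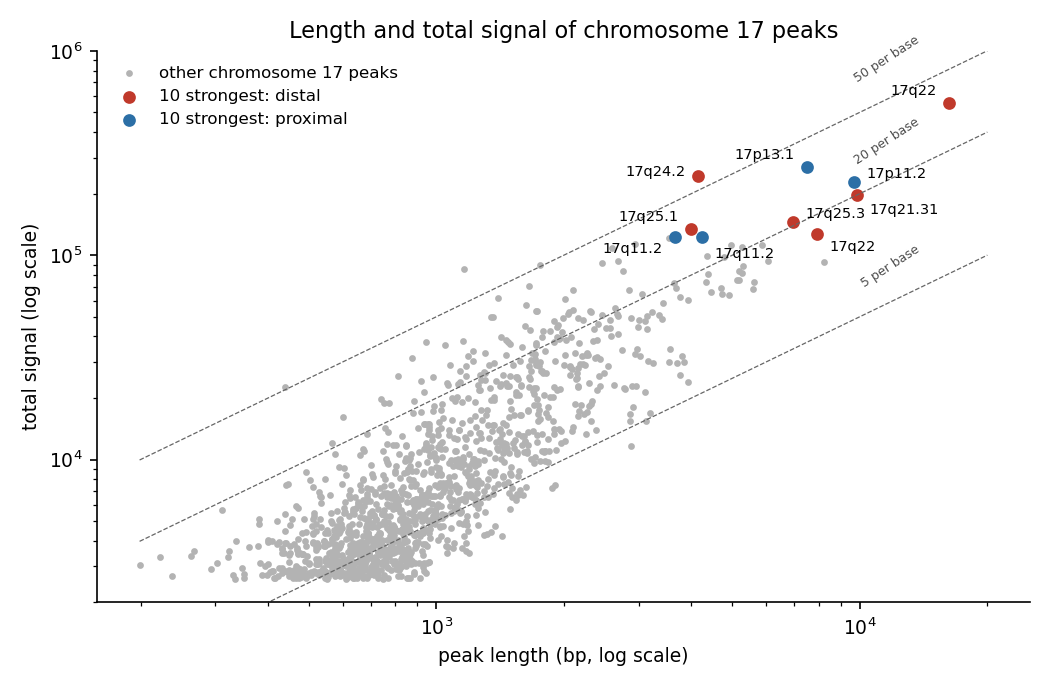
Length in bp against total signal of the 1337 chromosome 17 peaks, both on log axes; dashed lines mark 5, 20 and 50 per base, and the 10 strongest are coloured by side and labelled by band. The peak of 17q22 with 553145 stands above all others. From 500 bp upwards, longer peaks tended to lie at a higher signal per base, while those under 500 bp were out of that order.

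Peak density followed the bands' gene content in broad terms. Over the 20 bands whose lengths agree within 10% between hg19 and GRCh38, Spearman's rho between peaks per Mb and protein-coding genes per Mb was 0.746, a description over bands of 1 list. Over the 22 bands other than centromeric ones, 17q21.1 and 17q25.2 included, the 15 pale-staining bands had 22.9 peaks per Mb and the 7 darker ones 8.22. Pale here means unstained or in the lightest stained class. The densest of the 20 was 17q25.3 with 265 peaks, 45.0 per Mb and 2.50 per protein-coding gene, at a median of 6.46 per base. It holds SOCS3, an inhibitor of cytokine signalling, the polycomb genes CBX2 and CBX8, and FASN of fatty acid synthesis. Next came 17q25.1 with 138 peaks and 35.4 per Mb, the band of 6 of the 7 listed CD300 receptor genes of myeloid cells, the adaptor GRB2 and the splicing factor SRSF2.

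In RARA's band, 17q21.2, there were 26.4 peaks per Mb but 0.574 per protein-coding gene. Besides the keratins it holds STAT3, STAT5A and STAT5B of cytokine signalling, CCR7, a chemokine receptor for homing to lymph nodes, and EZH1, a polycomb methyltransferase. The bands 17q21.31 with 24.5 and 17p11.2 with 21.5 per Mb followed, and per gene they stood at 1.18 and 2.02. At the low end, 17q24.3, the band of SOX9, had 4 peaks or 1.05 per Mb, 17p12 had 2.83 and 17q23.2 had 2.86. The small band 17q21.1, whose length differs between the builds, had 15 peaks in 0.3 Mb.

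**Figure D5:**
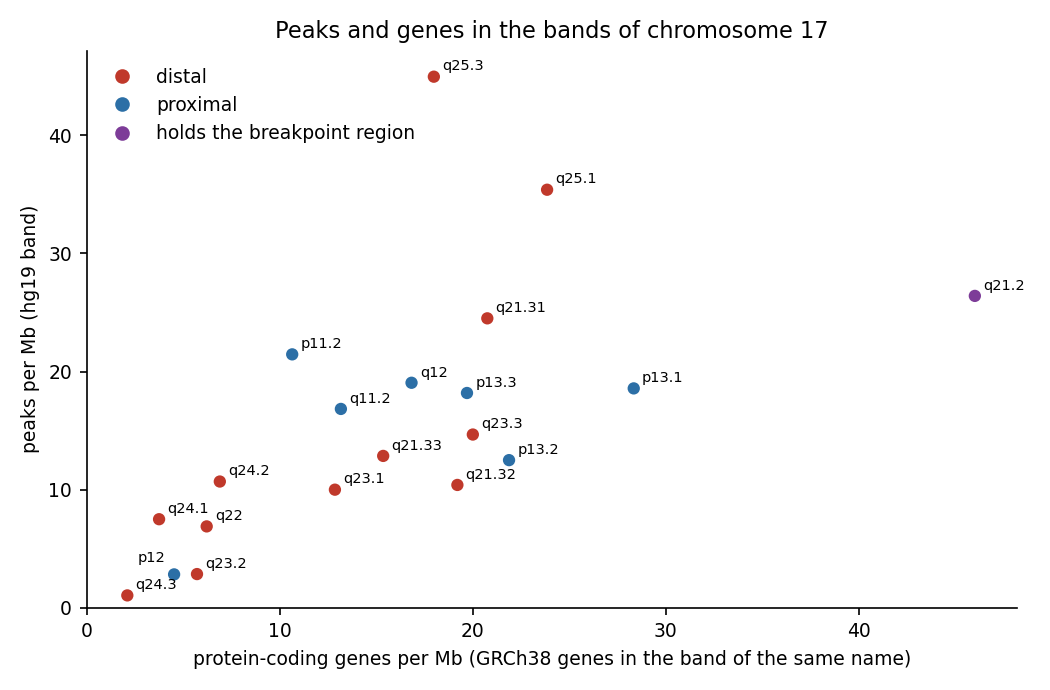
Protein-coding genes per Mb (GRCh38 genes in the band of the same name) against peaks per Mb (hg19) for 20 bands of chromosome 17, coloured by side of the breakpoint region. Band q25.3 stands highest at 45.0 peaks per Mb, and q21.2 lies far right with 0.574 peaks per gene.

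By gene group, the band densities had medians of 10.4 to 35.4 peaks per Mb. A group's name heads its list, and not every member is of the kind named. The median band density over all protein-coding genes of chromosome 17 was 18.6 peaks per Mb, and each group's median over its genes is given beside it. Myeloid granule and phagocyte genes had 11.3 over 14 genes, in 7 bands of 2.86 to 45.0 per Mb. Granulocyte cytokine and STAT signalling genes had 21.5 over 13 of 14 genes, the CC chemokine list 19.05, the CD300 family 35.4 and adhesion genes 13.8. The CC chemokine list also holds CXCL16 and the receptors CCR7 and CCR10. The list headed retinoid and related receptors had 20.2 over 6 of 9 genes. These 6 are RARA, NCOR1, MED1, MED13, CRK and CCDC57, of which only RARA is a nuclear receptor. Chromatin and polycomb genes had 21.8, tumour suppressor and cancer genes 17.7, and the HOXB cluster of homeobox genes 10.4. Among lists named for other cell types, type I keratins had 26.4, muscle myosins 18.6, neuronal and glial genes 16.8 and the lymphoid list 14.7 over 5 of 8 genes. The receptor and lymphoid medians leave out genes of 17q21.1, whose length differs between the builds. Left out were THRA, NR1D1 and MED24 of the receptor list, and IKZF3, GSDMB and ORMDL3 of the lymphoid list. The cytokine and STAT list lost CSF3 in the same way, and the housekeeping list PSMD3. With that band kept, at 50 peaks per Mb, the medians of the receptor and lymphoid lists were 26.4 and 33.2. The lymphoid median is then above 18.6 and not below it. On its hg19 model IKZF3 lies in 17q12, at 19.05 per Mb, and not at the 50 counted for it in the median of 33.2. With IKZF3 counted in 17q12, the lymphoid median would lie between 19.05 and 21.5, the densities of 17q12 and 17p11.2. The value of 33.2 is therefore too high for this list. GSDMB and ORMDL3 had no hg19 model, so their hg19 bands were not checked. Housekeeping genes had 19.05 and lipid and metabolic genes 24.5. Genes of a group often share a band, so keratins, HOXB genes and myosins each stand for 1 band, and a band's density is not a signal at its genes.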

How the data were processed

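Both NB4 libraries were sequenced as paired ends on a MiSeq, per the labels' protocols. Trimmomatic, Bowtie2, SAMtools, bedtools and SEACR, with hg19, are named in the submitters' processing notes; versions, the SEACR threshold, any control track and how replicates were merged are not stated there. The 2 signal columns deposited by the authors were read as SEACR's total and maximum signal: the first exceeded the length and stayed at or below length times maximum in all 20085 peaks. No scaling to depth is stated, read depth is unknown, and starts may count from 0. Intervals cover counting error only, with peaks treated as independent.

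Peaks were binned and placed in hg19 bands by their midpoints. Bands came from circlize 0.4.16, chromosome lengths from GenomeInfoDb 1.38.1 (R 4.3.3), and 8 gene models from pyranges 0.1.4, which does not name their build; hg19 was assumed. Genes were placed in GRCh38 bands of the same name, and in order, by the RefSeq table of GRCh38.p14; all 201 listed genes matched. Counts and medians used Python 3.11.15, pandas 2.3.3, numpy 2.4.6 and scipy 1.17.1, and were tested on simulated data; figures used matplotlib 3.10.9. Named genes are RARA, those with an hg19 model, and those of the 15 lists that share a band with the 10 strongest peaks or the 5 densest bands used; the 17q24.3 gene was named after its values were seen. The members and lists were chosen with earlier results of these data known.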

Additional observations from a re-analysis of the deposited data

How the results depend on the processing

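Of 42 alternative values, 23 stayed within their interval or within 1.5 times the count, and 19 moved. The density of chromosome 17 ranked 2 of 23 with all peaks, with gaps of at most 1 kb merged, and with totals of 5000 or maxima of 20 or more. The distal share was 75.3% over the long arm alone, of which the distal part is 74.7% by length, and 53.7% without the densest bin. With totals of 5000 or more, the median signal per base was 10.2 distal, 9.26 proximal and 9.94 over the chromosome; with maxima of 20 or more it was 10.8, 10.3 and 10.6; summed signal over summed length gave 11.8, 11.6 and 11.7. All of these exceed the reported medians, since the filters remove weak peaks and the sum weights long ones. The densest bin held 42 peaks with totals of 5000 or more and 33 with maxima of 20 or more. In alternatives chosen after seeing the data, the ratio of distal to proximal density of 1.19 became 1.08 without centromeric bands, 1.03 on the long arm alone and 0.905 there without its centromeric band. Keeping 17q21.1 moved 3 of 4 gene group medians, as given for the lymphoid and receptor lists and to 22.98 for the cytokine and STAT list. Totals of 100000 or more left 16 strong peaks. The share with a close neighbour was 54.3% after merging, 52.0% and 45.2% under the same 2 filters, 52.3% within 5 kb and 77.6% within 20 kb. Leaving out a replicate could not be run, because the list is merged. No paired analysis was possible because the list holds no value per replicate. Without replicate values, read depth or a control track, no difference here has an error between replicates.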

Other observations

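Outside the placed chromosomes, 13 peaks lay on contigs. The contig assigned to chromosome 17 without a position, chr17_gl000205_random, held 1, from 84697 to 88472, with a total of 258144, a maximum of 253 and 68.4 per base. Set among the chromosome 17 peaks it would rank 3 by total signal and 2 by signal per base. Other contigs held peaks as strong, so this was not particular to the chromosome 17 contig. A peak of chr7_gl000195_random had a total of 272501 and 83.5 per base, and chrUn_gl000220 had peaks with totals of 290974 and 265419. The peak of 265419 had a maximum of 1005 and 138.8 per base, above the chromosome 17 highs of 417 and 73.6. Whether reads on these contigs map to a single place was not tested. The remaining contig peaks had totals of at most 79912.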
